A study of Mus musculus with 146 samples.

Results

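The genes described here are Stat3, Jak1, Jak2, Il6st, Lifr and Socs3, which were all 6 found among the 52605 gene symbols of the deposited tables. Single germ cells were picked from ovaries of newborn C57/BL6J mice, labelled D0.5, and Smart-seq2 libraries were made from the polyadenylated RNA of each cell. The pups shared a litter, the labels give 5 ovaries, and no cell is assigned to an animal. There was no treatment or control group. Of the 146 libraries, 7 pairs held nearly the same values (Pearson r of log2 TPM 0.991 to 0.9968, against at most 0.88 for any other pair). Their squared differences in reads were 1.37 to 2.48 times the counting noise, against at least 203 times for the next 100 pairs. Each pair was counted as 1 cell with the mean of its values, since it may be 1 cell with 2 libraries or 2 sequencing runs, and every such cell lay in cluster 2 below. All but 1 of the cells had at least 1 TPM (a share of all transcripts, corrected for depth and transcript length) of Ddx4, the germ cell RNA helicase also called Vasa, and were kept. The cell left out had 0 TPM of Ddx4, and the lowest cell kept, cell 10, had 7.49 TPM. The study screened its libraries by quantitative PCR for Vasa and for Foxl2, a gene of pregranulosa cells, before sequencing, so the level of both genes took part in which cells were sequenced.

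Cytokines of the interleukin 6 family signal through Il6st, the shared receptor subunit gp130, which pairs with Lifr when the ligand is leukemia inhibitory factor. The receptors have no enzyme of their own and rely on bound Janus kinases such as Jak1 and Jak2, which phosphorylate Stat3 so that it moves to the nucleus and activates genes. One of these is Socs3, whose protein binds gp130 and the kinases and shuts the signal down. Stat3 is best known for keeping cultured mouse embryonic stem cells undifferentiated, and its fly homologue acts in germ line stem cells of the testis. RNA levels say nothing of phosphorylation, and no protein was measured in these libraries.

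Cells were placed in 3 clusters that were rebuilt from 19 marker genes named in the study's text and from Taf4b, which was supplied here, and numbered along their first component. They are not the study's own clusters, from which they differ in size and in the cells used. Cluster 1 held 19 cells with high Sycp2, a gene of the meiotic chromosome axis (mean 494.9 TPM, against 168.1 and 61.7 TPM in clusters 2 and 3). Cluster 2 held 87 cells in which Figla and Lhx8, oocyte transcription factors, were at their highest (means of 1703 and 677 TPM). Cluster 3 held 32 cells with high Zp3, a gene of the egg coat (mean 563.3 TPM, against 0.0943 TPM in cluster 1). None of the 6 genes was used to build the clusters. All cells come from 1 sample, so cells are not replicates, no test or p-value was made, and a difference between clusters means a ratio of mean TPM of at least 1.5-fold (log2 of 0.58) after adding 1 TPM to both means.

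Reads assigned to genes ran from 4837063 to 33117438 per kept cell, with a median of 9669903. Cells of cluster 3 had more genes with at least 1 read (median 14580, against 12420 and 12270 in clusters 1 and 2) and a smaller share of spike-in reads (median 0.266%, against 0.345% and 0.443%). The 10 germ cell markers summed to between 1010 and 17500 TPM in every kept cell, and Ddx4, Dazl, Sycp3, Figla and Rnf17 were detected in each of them. The 11 pregranulosa markers summed to at most 81.6 TPM, with Foxl2 detected in 4 cells, and the 8 stroma markers to at most 879 TPM. Blood or endothelial markers, mostly globins, reached 325000 TPM in 1 cell of cluster 1 and had a median of 55.2 TPM. When the 14 cells with the most somatic marker RNA were left out, no ratio of the 6 genes moved by as much as 1.5-fold. The log2 ratio of Lifr for cluster 3 over 1 (0.46) then lay below the 1.5-fold limit, and that for cluster 2 over 1 (-0.75) passed it. These 14 cells had at least 6550 TPM of somatic markers, while pregranulosa and stroma markers together reached at most 879 TPM. They were thus rich in blood or endothelial markers, and leaving them out could not show the part of the other markers. Without the cells highest in pregranulosa and stroma markers, a setting added after seeing the data, log2 ratios moved by at most 0.27.

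The 6 genes ranged from among the most abundant coding genes to nearly absent. Stat3 had the highest mean, 184.9 TPM (SD 162.0 over the kept cells), and stood at percentile 96.2 of 19786 coding genes. Jak1 followed with 91.16 TPM (SD 85.03, percentile 91.5). Il6st had 20.23 TPM (SD 30.82), Jak2 15.75 TPM (SD 16.24) and Lifr 9.09 TPM (SD 27.77), at percentiles 71.7, 68.1 and 61.2. Socs3 had a mean of 0.0351 TPM (SD 0.312, percentile 18.2).

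Within single cells this order held for some neighbours and not for others. Stat3 was above Jak1 in 72.5% of the cells, and Jak1 was above Il6st in 84.1%. Il6st was above Jak2 in 42.8% and below it in 52.9%, so these neighbours in the order of means did not differ beyond their spread. Jak2 was above Lifr in 71.7% of the cells, and Lifr above Socs3 in 66.7%, with both at 0 in 46 cells. The means also depend on which transcript the reads were given to, as described below. The deposited mean was 2.11 times that with all reads set against the longest annotated transcript for Stat3, 2.2 times for Jak1, 4.19 times for Il6st and 7.04 times for Lifr, and 1.06 times for Jak2. On that scale Jak2 (mean 14.8) stood above Il6st (4.83) and was higher in 67.4% of the cells.

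**Figure D1:**
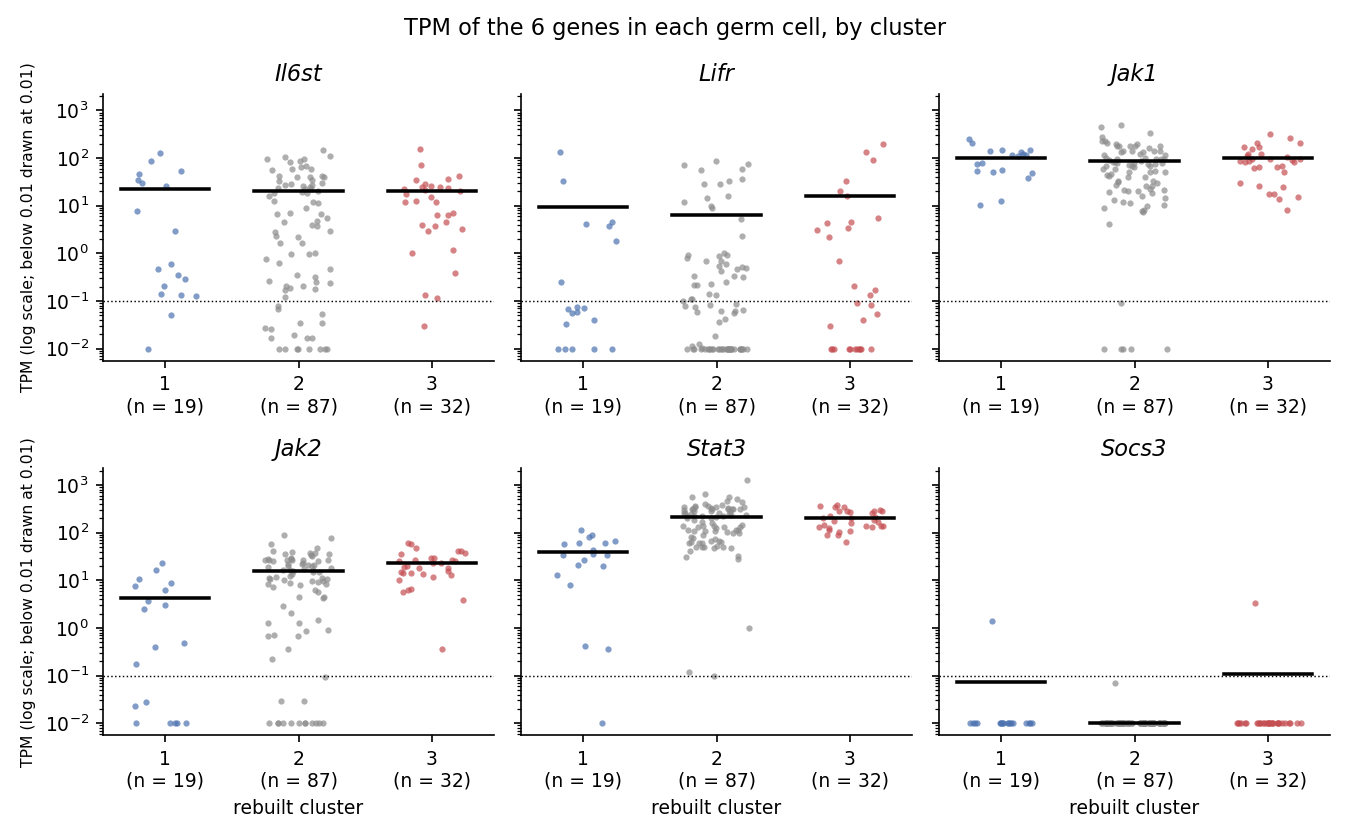
TPM of each gene (log axis) in the germ cells of clusters 1, 2 and 3 (n = 19, 87 and 32), 1 point per cell, with values below 0.01 TPM drawn at 0.01; the black bar is the mean and the dotted line is the detection level of 0.1 TPM. Stat3 and Jak2 sat lower in cluster 1 than in clusters 2 and 3, Jak1 and Il6st had like means in all 3, and Socs3 was above the dotted line in 2 cells.

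Stat3, the transcription factor at the end of the pathway, lies on the minus strand at chr11:100885098-100939540 (GRCm38, GENCODE M21), where 14 transcripts are annotated, 4 of them coding. It was detected at 0.1 TPM or more in 98.6% of cells (exact 95% interval 94.9 to 99.8%) and reached 100 TPM in 91 cells. In the 19 cells of cluster 1 the lowest, median and highest values were 0, 34.2 and 111.3 TPM. In the 87 cells of cluster 2 they were 0.0976, 164.0 and 1258 TPM, and in the 32 cells of cluster 3 they were 63.99, 180.3 and 376.8 TPM. The ranges overlapped, but no cell of cluster 1 reached the median of cluster 2 or of cluster 3, and 56 of 87 cells of cluster 2 and 27 of 32 cells of cluster 3 lay above the highest cell of cluster 1.

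The mean of Stat3 was 40.15 TPM in cluster 1, 210.9 TPM in cluster 2 and 200.4 TPM in cluster 3. It was 5.15-fold higher in cluster 2 than in cluster 1 (log2 ratio 2.36), and it was 4.89-fold higher in cluster 3 than in cluster 1 (log2 ratio 2.29). Clusters 2 and 3 differed by a log2 ratio of -0.07. For cluster 3 over 2 the clusters from variable genes gave -0.68. With TPM divided by the spike-in RNA of the cell the ratio was 0.84, while the median of all coding genes moved from -0.20 to 0.65. Across alternatives for the comparison of cluster 2 with cluster 1 the lowest ratio was 1.57, with clusters built from 2000 variable genes. Leaving out any 1 cell gave 2.28 to 2.51. For cluster 3 over 1 the ratio was 0.89 with clusters from variable genes, 1.81 over the longest transcript, 2.99 as a difference of mean log2 values and 3.08 per spike-in RNA.

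Jak2, 1 of the 2 kinases followed here, was the other gene that was higher outside cluster 1. It lies on the plus strand at chr19:29251828-29313080. Its lowest, median and highest values were 0, 0.484 and 22.5 TPM in cluster 1, 0, 11.3 and 89.4 TPM in cluster 2, and 0.359, 19.1 and 60.3 TPM in cluster 3. The groups overlapped over much of their range, with 24 of 87 cells of cluster 2 and 15 of 32 cells of cluster 3 above every cell of cluster 1. Its detected share was 12 of 19 cells (63.2%, exact 95% interval 38.4 to 83.7%), 72 of 87 (82.8%, 73.2 to 90.02%) and 32 of 32 (100%, 89.1 to 100%). After drawing 1000000 reads from each cell, at least 1 read of Jak2 was left in 57.9%, 81.6% and 100% of the cells of clusters 1, 2 and 3.

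Mean Jak2 was 4.34, 15.6 and 23 TPM in clusters 1, 2 and 3. Cluster 2 was 3.11-fold above cluster 1 (log2 ratio 1.64) and cluster 3 was 4.5-fold above cluster 1 (log2 ratio 2.17), against 0.998 and 1.2 with clusters from variable genes. The step from cluster 2 to cluster 3 was 1.45-fold (log2 ratio 0.53), below the 1.5-fold limit. It lay above that limit with Ward clusters (0.61), as CPM (0.69), as a difference of mean log2 values (1.17), per spike-in RNA (1.25) and without cell 66 (0.61). Per spike-in RNA the median of all coding genes was 0.649. Each alternative was positive, the lowest being 0.204 with clusters from variable genes, but the limit was not always passed. No difference is therefore called for this step. CPM are reads scaled to a common depth with no correction for length.

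Jak1, the kinase most tied to gp130, lies on the minus strand at chr4:101152367-101265282 and was detected in 95.7% of cells (exact 95% interval 90.8 to 98.4%). Its lowest, median and highest values were 10.4, 107.8 and 256.6 TPM in cluster 1, 0, 63.6 and 498.7 TPM in cluster 2, and 8.31, 85.8 and 316.8 TPM in cluster 3. These ranges overlapped almost wholly. The means of 100.9, 86.5 and 97.96 TPM gave log2 ratios of -0.22, 0.18 and -0.04 for cluster 2 over 1, 3 over 2 and 3 over 1. None of these passed 1.5-fold, but 3 alternatives did, and not in 1 direction. Cluster 2 over 1 gave -0.82 as a difference of mean log2 values and 0.64 with clusters from variable genes. Cluster 3 over 2 gave 0.67 as a difference of mean log2 values, 1.11 per spike-in RNA and -0.75 with clusters from variable genes, and cluster 3 over 1 gave 0.83 per spike-in RNA.

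The receptor subunits varied widely between cells. Il6st, on the plus strand at chr13:112464070-112510086, was detected in 84.1% of cells (exact 95% interval 76.9 to 89.7%), yet its median was 5.91 TPM against a highest value of 155.3 TPM. Its means in clusters 1, 2 and 3 were 22.1, 19.9 and 20.03 TPM, and its medians were 0.604, 3.96 and 12.3 TPM. The log2 ratios of the means were -0.14 for cluster 2 over 1, 0.0086 for 3 over 2 and -0.14 for 3 over 1. Medians and means of Il6st differed in order, and the difference of mean log2 values between clusters 3 and 1 was 0.88, past the limit that the ratio of means did not reach. Per spike-in RNA cluster 3 stood above cluster 2 by 0.65 and above cluster 1 by 0.66.

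Lifr, on the plus strand at chr15:7090614-7197489, was detected in 63 cells (45.7%, exact 95% interval 37.2 to 54.3%). Its median was 0.0757 TPM, and the 14 highest cells held 85.3% of its summed TPM. The lowest, median and highest values were 0, 0.067 and 131.1 TPM in cluster 1, 0, 0.0766 and 86.6 TPM in cluster 2, and 0, 0.114 and 201.9 TPM in cluster 3. The shares of cells with Lifr were 36.8%, 45.98% and 50.0%, with intervals that overlap (16.3 to 61.6%, 35.2 to 57% and 31.9 to 68.1%). Its mean was 9.46, 6.35 and 16.3 TPM in clusters 1, 2 and 3.

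The log2 ratio of Lifr for cluster 3 over cluster 2 was 1.24, but it rested on single cells and on the transcript the reads were given to. Without cell 92 it was 0.63, still past the 1.5-fold limit. With Ward clusters it was 0.57. As CPM it was -0.13, and with all reads set against the longest transcript it was -0.18, so no direction is given for Lifr. Between clusters 2 and 1 its log2 ratio was -0.51, with 0.99 without cell 65 and -0.705 without cell 96. That ratio was -0.895 with the cell that lacked Ddx4 added and -0.749 without cells high in somatic markers, both past the 1.5-fold limit. In the other direction it was 1.73 as CPM and 0.885 over the longest transcript. For cluster 3 over 1 it was 0.73, with 0.119 without cell 92, 2.23 without cell 65, 0.344 with the cell that lacked Ddx4 added and 0.472 with clusters built without Taf4b.

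Socs3, the feedback inhibitor, lies on the minus strand at chr11:117966079-117970047. Reads of Socs3 were found in 3 of the kept cells, at 3.41 TPM in cell 4 of cluster 3, with 18 reads in cell 51 of cluster 1 (1.37 TPM) and 1 read in cell 7 of cluster 2 (0.0688 TPM). At 0.1 TPM it was detected in 2 cells (1.45%, exact 95% interval 0.176 to 5.14%). Both cells also had Il6st, Lifr, Jak1, Jak2 and Stat3 at 0.1 TPM or more. With so few reads no ratio between clusters can be read.

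Background shares give the scale for these counts. Of the 5 genes with a mean of at least 1 TPM, 2 (Stat3 and Jak2) were higher in cluster 2 than in cluster 1, where 24.5% of 12487 coding genes were higher by the same rule, and 0 were lower, against 25.4% of coding genes. Cluster 3 stood above cluster 2 in 1 of 5 (Lifr, with the limits given above), against 18.2% of 12260 coding genes, and below it in 0 of 5, against 30.3%. Cluster 3 stood above cluster 1 in 3 of 5 (Stat3, Jak2 and, with the same limits, Lifr), against 27.5% of 12619 coding genes, and below it in 0 of 5, against 38.8%. No test was made of these counts, and nothing about the set is read from 5 genes.

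Along the first component of the marker genes, the cells were cut into 5 bins of 27 or 28. Mean Stat3 in bins 1 to 5 was 53.8, 149.2, 285.0, 245.1 and 194.0 TPM, so it was highest in bin 3, which held cells of cluster 2 alone, or in bin 4 when cells were ordered by variable genes. Mean Jak2 was 5.39, 12.6, 15.4, 25.4 and 20.4 TPM, highest in bin 4, or in bin 5 with that order. Spearman's rho with the component was 0.516 for Stat3 and 0.489 for Jak2 over the kept cells of 1 sample, given as a description. Within cluster 2 alone (87 cells) rho was 0.464 and 0.357, and within clusters 1 and 3 it was -0.232 and -0.129 for Stat3 and -0.474 and 0.0425 for Jak2.

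Jak1, Il6st and Lifr showed no such course. Mean Jak1 ran from 75.6 to 106.2 TPM over the bins, Il6st from 16.8 to 23.3 TPM and Lifr from 3.32 to 19.2 TPM, with rho of -0.115, 0.113 and 0.0421. The share of cells with Jak2 went from 67.9% in bin 1 to 100% in bin 5, and that of Il6st was 100% in bin 5 and between 75% and 85.7% in the others. Bin 5 held 27 cells of cluster 3, which also had more genes detected, and the part of this in the share of Il6st was not tested.

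**Figure D2:**
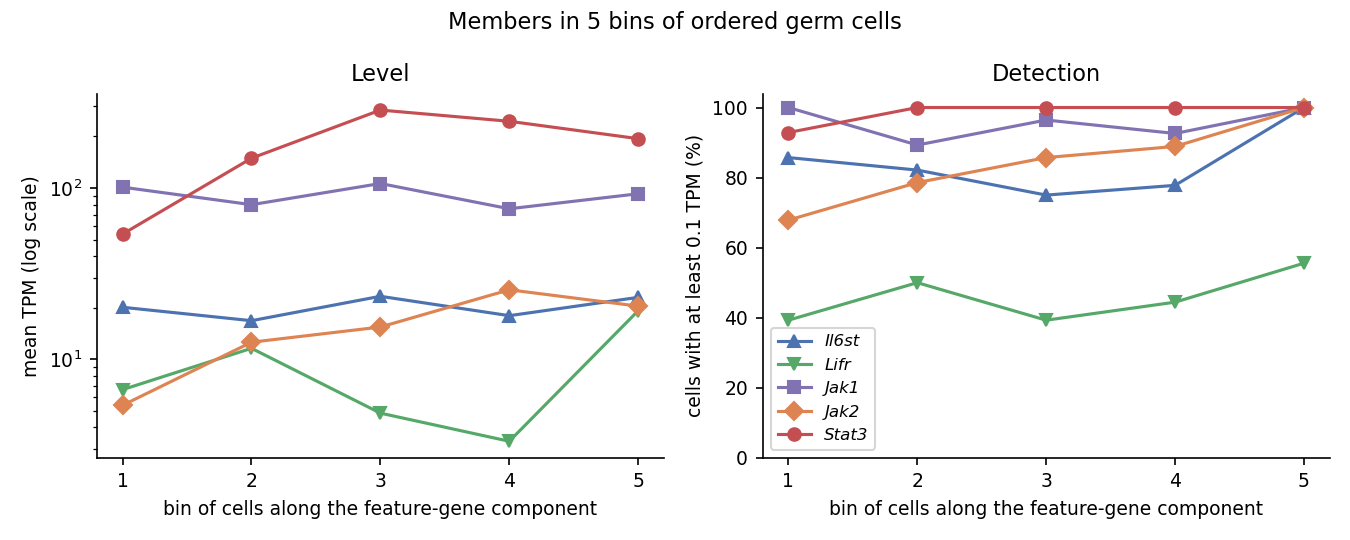
Mean TPM (left, log axis) and percent of cells with at least 0.1 TPM (right) of 5 genes in 5 bins of 27 or 28 cells ordered by the first component of the 20 marker genes; each marker is 1 bin, and Socs3 is left out. Stat3 went from 53.8 TPM in bin 1 to 285.0 TPM in bin 3, Jak2 from 5.39 to 25.4 TPM in bin 4, and Jak1 stayed between 75.6 and 106.2 TPM.

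The genes moved together only in part. Of the 10 pairs among Stat3, Jak1, Jak2, Il6st and Lifr, Stat3 with Jak2 had the highest rho (0.353 over the kept cells, 0.265 within cluster 2, 0.0711 within cluster 3 and -0.00885 within cluster 1). Il6st with Lifr came next (0.234 over the kept cells, 0.289 within cluster 2, 0.143 within cluster 3 and 0.085 within cluster 1). The other 8 pairs lay between -0.0803 and 0.108. Jak1 and Stat3, the pair of highest level, had a rho of 0.005.

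Il6st, Stat3 and at least 1 of Jak1 and Jak2 were detected together at 0.1 TPM in 82.6% of cells (exact 95% interval 75.2 to 88.5%), at 1 TPM in 85 cells (61.6%, 52.9 to 69.7%) and at 10 TPM in 56 cells (40.6%, 32.3 to 49.3%). With Lifr added, 59 cells remained (42.75%, 34.4 to 51.45%), 27 at 1 TPM (19.6%) and 11 at 10 TPM (7.97%, 4.05 to 13.8%). Jak1, Jak2 and Stat3 were all at 10 TPM or more in 3 of 19 cells of cluster 1 (15.8%, 3.38 to 39.6%), 39 of 87 of cluster 2 (44.8%, 34.15 to 55.9%) and 26 of 32 of cluster 3 (81.25%, 63.6 to 92.8%).

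Over the kept cells the rho of Stat3 was 0.512 with Kit, the receptor of Kit ligand, and -0.221, 0.467 and 0.514 within clusters 1, 2 and 3. It was 0.472 with Id2, an inhibitor of basic helix-loop-helix factors, 0.264 with Figla, 0.234 with Zp3, -0.0849 with Ddx4, 0.161 with the summed germ cell markers and -0.357 with Sycp2. Within clusters 1, 2 and 3 its rho with Id2 was 0.219, 0.309 and 0.128, and with Sycp2 it was -0.165, -0.206 and 0.268, of the other sign in cluster 3. The highest rho among 8258 coding genes was with Kdm1b (0.704), a histone demethylase needed for maternal imprints in oocytes, whose mean was 29.1, 315 and 320 TPM in clusters 1, 2 and 3. Gdpd1 (0.612), Zbed3 (0.594), Mvp (0.580) and Acat1 (0.580) followed. Within cluster 2 these 5 had rho of 0.472 to 0.577, within cluster 1 of -0.114 to 0.290 and within cluster 3 of 0.115 to 0.614.

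Jak2 was most like Marveld2 (rho 0.519), a protein of tricellular junctions, then Kdm1b (0.504), Zfp57 (0.501), a zinc finger protein that keeps imprints, Bglap3 (0.493) and Map3k5 (0.492). Within cluster 2 these genes had rho of 0.357 to 0.47, within cluster 1 of -0.224 to 0.281 and within cluster 3 of -0.0418 to 0.382. Jak1 was most like Cnot2 (0.510), of the CCR4-NOT deadenylase, Atp5b (0.474), Psmd10 (0.474) and Mcat (0.467). Within clusters 1, 2 and 3 its rho with Psmd10 was -0.167, 0.612 and 0.411, of the other sign in cluster 1. Jak1 also had a rho of -0.323 with the mitochondrial share of reads and -0.345 with the spike-in share, and the part of these was not tested. For Il6st no gene exceeded Herc3 (0.413), and Tnip1, Zdhhc24, Acox3 and Gadd45b followed at 0.364 to 0.333. Il6st and Lifr had rho of 0.299 and 0.359 with the number of genes detected and of 0.213 and 0.262 with summed blood or endothelial markers, and the part of these in their levels was not tested.

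**Figure D3:**
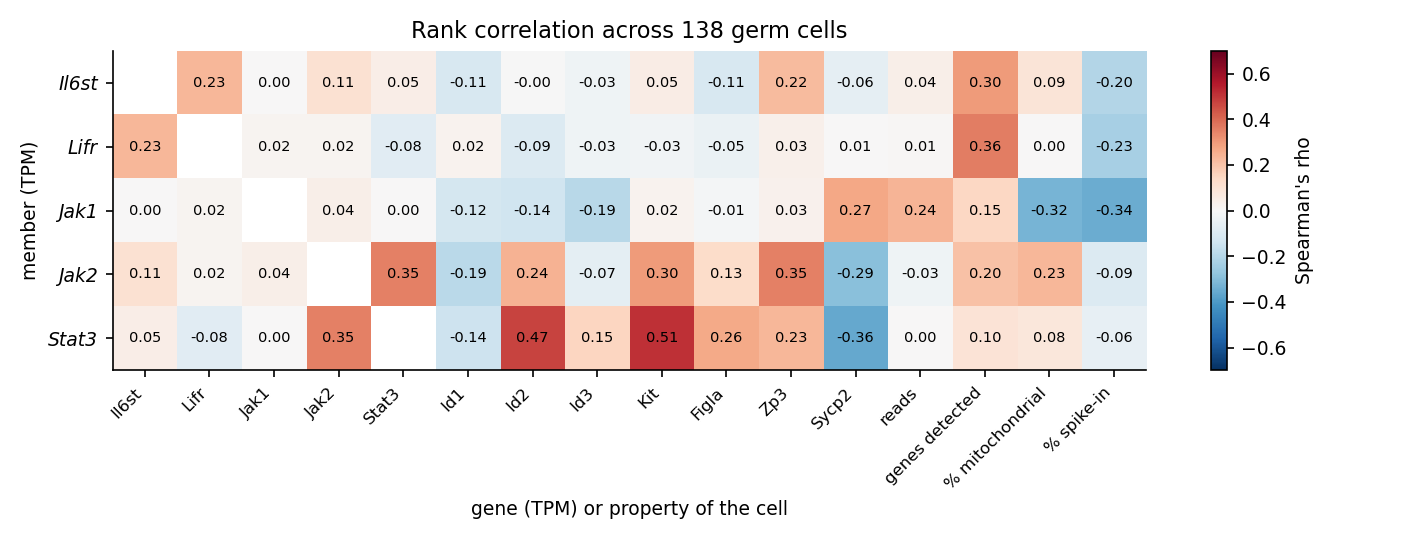
Spearman's rho across the kept germ cells between the TPM of 5 genes (rows) and one another, 7 other genes and 4 properties of the cell (columns); red is positive and blue negative. The strongest values are those of Stat3 with Kit (0.512) and with Id2 (0.472).

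The transcript behind a value differed between genes. Reads divided by TPM give the length of transcript a value implies, scaled by the deposited effective lengths of genes with a single annotated transcript. An effective length is a corrected length that need not equal the full one, so annotated full lengths beside it are a rough guide. Jak2 implied between 4562 and 4916 bases in every cell with at least 20 reads (79.7% of cells), close to its annotated transcripts of 4947 and 5030 bases. Stat3 implied a median of 3028 bases (95.7% of cells) and never more than 4443, with coding transcripts of 2506 to 6042 bases and noncoding ones, mostly retained introns, of 349 to 1995. Jak1 implied a median of 2720 bases against a full-length transcript of 4906.

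Il6st and Lifr varied most. Lifr implied 8000 bases or more in 22 of 46 cells, near its 9655-base transcript, and less than 1000 in 10. The 5 cells with the highest Lifr TPM (86.6 to 201.9) implied only 72 to 362 bases and held 73 to 465 reads, so their high TPM came with few reads. Annotated Lifr transcripts with a full length below 1000 bases are a coding one of 577 and a noncoding one of 299 bases. The 5 highest cells of Il6st (104.3 to 155.3 TPM) implied 149 to 882 bases. Set against the longest transcript, the mean of Lifr was 1.29 in place of 9.09 and that of Il6st was 4.83 in place of 20.2 on the TPM scale, while Jak2 was 14.8 in place of 15.8. Stat3 was 87.45 in place of 184.9, and its log2 ratio of cluster 2 over 1 was 2.12. Jak1 was 41.4 in place of 91.2, and its log2 ratio of cluster 3 over 1 was -0.49 in place of -0.04, still within the 1.5-fold limit.

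**Figure D4:**
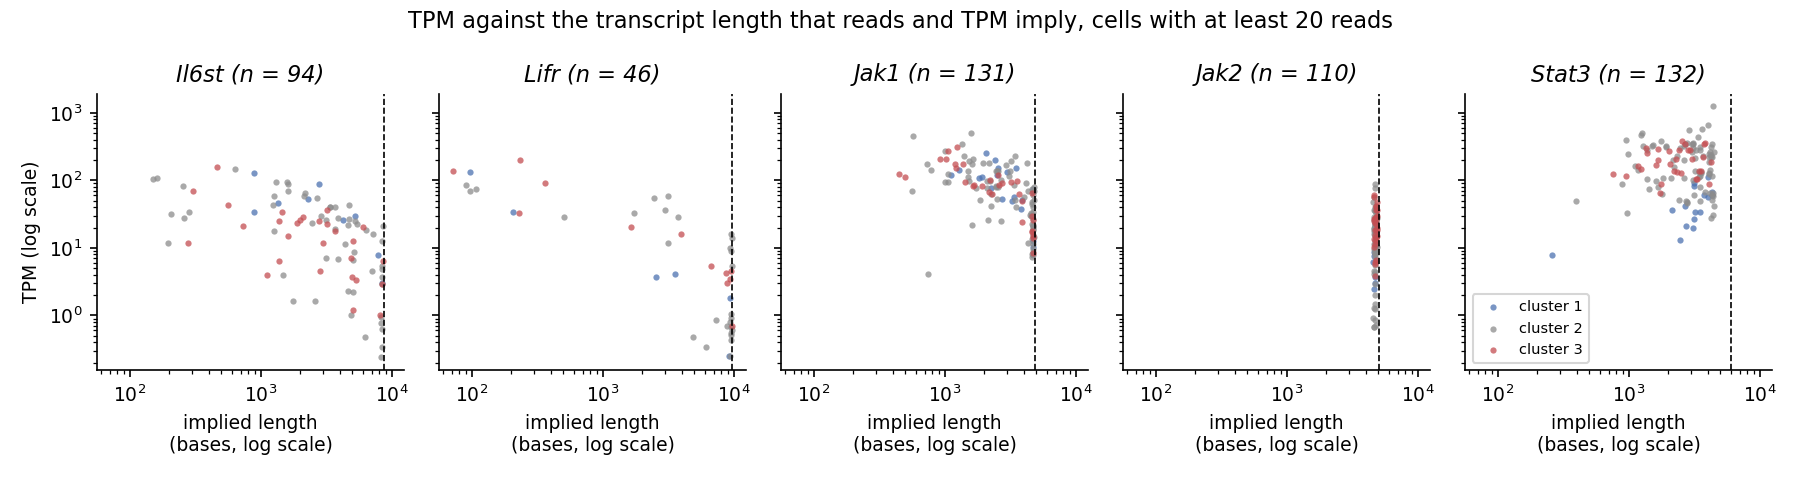
TPM of 5 genes against the effective transcript length implied by reads and TPM (both axes log, bases on x). Each point is 1 cell with at least 20 reads, coloured by cluster. The dashed line is the full annotated length of the longest transcript in GENCODE M21. Jak2 forms a single column at 4562 to 4916 bases, and the highest cells of Lifr lie at 72 to 362 bases.

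The upstream sequences of Socs3 and Stat3 are shown because Socs3 is the classical target of Stat3 and was nearly absent where Stat3 was abundant, and Stat3 because it had the highest level. They are the 250 bases before the RefSeq start (GRCm38.p6), both on the minus strand and written 5′ to 3′, from chr11:117969367-117969616 for Socs3 and chr11:100939541-100939790 for Stat3. The Socs3 window lies inside the gene as annotated in GENCODE M21 (chr11:117966079-117970047), so it is upstream of the RefSeq start only. The Stat3 window lies outside its GENCODE M21 gene. Capitals mark the palindromic STAT motif TTCNNNGAA, which reads alike on both strands.
Socs3: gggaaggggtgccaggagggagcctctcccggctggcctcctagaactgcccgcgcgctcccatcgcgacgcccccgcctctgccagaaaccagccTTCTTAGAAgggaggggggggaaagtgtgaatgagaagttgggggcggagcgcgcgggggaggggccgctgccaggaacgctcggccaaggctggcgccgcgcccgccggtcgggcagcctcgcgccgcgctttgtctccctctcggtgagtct
Stat3: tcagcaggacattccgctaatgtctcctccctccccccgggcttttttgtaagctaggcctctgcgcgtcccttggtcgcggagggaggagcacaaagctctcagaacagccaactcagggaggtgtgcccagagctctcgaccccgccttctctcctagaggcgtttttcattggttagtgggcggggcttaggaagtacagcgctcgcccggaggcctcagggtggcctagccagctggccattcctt
The Socs3 window holds 1 match, TTCTTAGAA at chr11:117969512-117969520, which spans bases 154 to 146 before the start. Of the 7 RefSeq promoters of the 6 genes (Lifr has 2), this was the 1 with a match, and 7.02% of 32851 promoters of the same length hold one. A match is a string of letters, not a measured site, and no match says only that these letters are not in the window.

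The wider pathway was read from lists of its ligands, receptors, kinases, factors and regulators. Among ligands of the gp130 family, Il6 was at 0 TPM in every kept cell, which allows a share of up to 2.17%, and Lif had a mean of 0.293 TPM and was detected in 20 cells. Means of at least 1 TPM were found for Ctf2 (3.06 TPM, detected in 98 cells), Ctf1 (1.965 TPM, in only 11 cells) and Clcf1 (1.685 TPM, in only 19 cells). Mean Ctf2, a cardiotrophin, stood at 0.689 TPM in cluster 1, 2.61 TPM in cluster 2 and 5.68 TPM in cluster 3, with log2 ratios of 1.10 for cluster 2 over 1 and 1.98 for cluster 3 over 1.

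Among 10 receptors of the family, Il11ra1 (9.51 TPM) and Lepr (3.27 TPM) were the others with a mean of at least 1 TPM beside Il6st and Lifr. Il11ra1 was detected in 36 cells and its highest cell had 529.3 TPM. Il6ra, the subunit that binds interleukin 6, had a mean of 0.697 TPM. Of the receptors that use Janus kinases outside the family, the interferon receptor chain Ifnar1 (33.2 TPM, 92% of cells) and Crlf2 (20.5 TPM) were highest, while Ifnar2, the other chain of the interferon receptor, had 0.856 TPM and was detected in 7 cells. Ifngr1 (9.70 TPM), Ifngr2 (5.18 TPM), Prlr (4.37 TPM), Il13ra1 (2.28 TPM) and Ghr (2.19 TPM) also passed 1 TPM. In that list of 16, 1 of 9 measured genes was higher and 5 lower in cluster 2 than in cluster 1, against 24.5% higher and 25.4% lower of all coding genes, with a median log2 ratio of -0.97. In cluster 3 against cluster 2, 5 of 9 were higher and 1 lower, against 18.2% and 30.3%, with a median of 0.69. Between clusters 3 and 1, 4 of 11 were higher and 4 lower, against 27.5% and 38.8%, with a median of 0.33. Several of these means rest on few cells.

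The other kinases had lower means over the kept cells than Jak1 and Jak2. Tyk2 had 9.91, 10.6 and 7.59 TPM in clusters 1, 2 and 3, and Jak3, the kinase of lymphoid cells, a mean of 0.203 TPM. Stat2 had a mean of 6.695 TPM, Stat6 5.07 TPM, Stat5a 2.54 TPM, Stat5b 1.12 TPM and Stat4 0.155 TPM. Stat6 was 2.59 TPM in cluster 2 and 13.4 TPM in cluster 3, and over all kept cells it was detected in 37. Its highest cell, at 208.1 TPM, lay in cluster 2, whose mean was 0.201 TPM without it.

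Negative regulators other than Socs3 were present. Ptpn2, a phosphatase of Janus kinases, had a mean of 79.4 TPM, the SUMO ligases Pias2, Pias4 and Pias1 had 73.7, 63.3 and 54.2 TPM, and Socs6 had 53.85 TPM. Sh2b3 (23.1 TPM), Ptpn1 (12.9 TPM), Pias3 (12.5 TPM), Ptpn11 (11.51 TPM) and Socs2 (10.6 TPM) followed, and Socs7, Socs5, Socs4, Socs1, Ptpn6 and Cish lay between 5.18 and 1.029 TPM. Of these, Socs1, Cish and Ptpn6 were detected in only 25, 23 and 7 cells. From cluster 2 to cluster 3, 6 of 16 measured regulators were lower and 1 higher, against 30.3% lower and 18.2% higher of all coding genes, with a median log2 ratio of -0.32 against -0.20 over all coding genes. In cluster 2 against cluster 1, 4 of 16 were higher and 3 lower, against 24.5% and 25.4% of all coding genes. In cluster 3 against cluster 1, 2 of 15 were higher and 8 lower, against 27.5% and 38.8%. Socs6 went from 67.9 TPM in cluster 2 to 21.6 TPM in cluster 3 (log2 ratio -1.61), Socs2 from 11.35 to 4.55 TPM (-1.15) and Pias2 from 79.5 to 36.1 TPM (-1.12), while Socs1 went from 0.743 to 5.45 TPM (1.89).

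Of 20 genes known as Stat3 targets in other cells, 13 had a mean of at least 1 TPM. The highest were Hif1a (60.5 TPM), the survival genes Bcl2l1 (53.2 TPM) and Mcl1 (32.6 TPM), and the kinases Pim3 (32.5 TPM) and Pim2 (15.9 TPM). In cluster 2 against cluster 1, 5 of 15 measured targets were higher and 2 lower, against 24.5% higher and 25.4% lower of all coding genes, with a median log2 ratio of 0.35 against -0.05 over all coding genes. In cluster 3, 5 of 15 were higher and 3 lower than in cluster 2, against 18.2% and 30.3% of all coding genes, and 7 of 14 were higher and 3 lower than in cluster 1, against 27.5% and 38.8%. Mcl1 went from 19.3 TPM in cluster 1 to 34.8 TPM in cluster 2, Hif1a from 37.4 to 62.7 TPM and Pim2 from 8.25 to 14.3 TPM, while Bcl2l1 (59.9 and 57.1 TPM) was within the limit. Fos and Junb are immediate early genes that many signals raise, and were detected in 37 and 21 cells. Mean Fos was 0.0595, 2.26 and 30.5 TPM in clusters 1, 2 and 3, and 12.9 TPM in cluster 3 without its highest cell (576.1 TPM). Mean Junb was 4.59, 1.73 and 17.4 TPM, and 9.03 TPM in cluster 3 without its highest cell (277.1 TPM). Bcl3, another target, was detected in 2 cells, and Myc had a mean of 0.262 TPM. Tfcp2l1 (9.79 TPM), Cebpd (4.91 TPM), Nfil3 (4.02 TPM), Klf4 (3.205 TPM), Cebpb (3.13 TPM) and Ccnd1 (2.35 TPM) made up the rest.

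**Figure D5:**
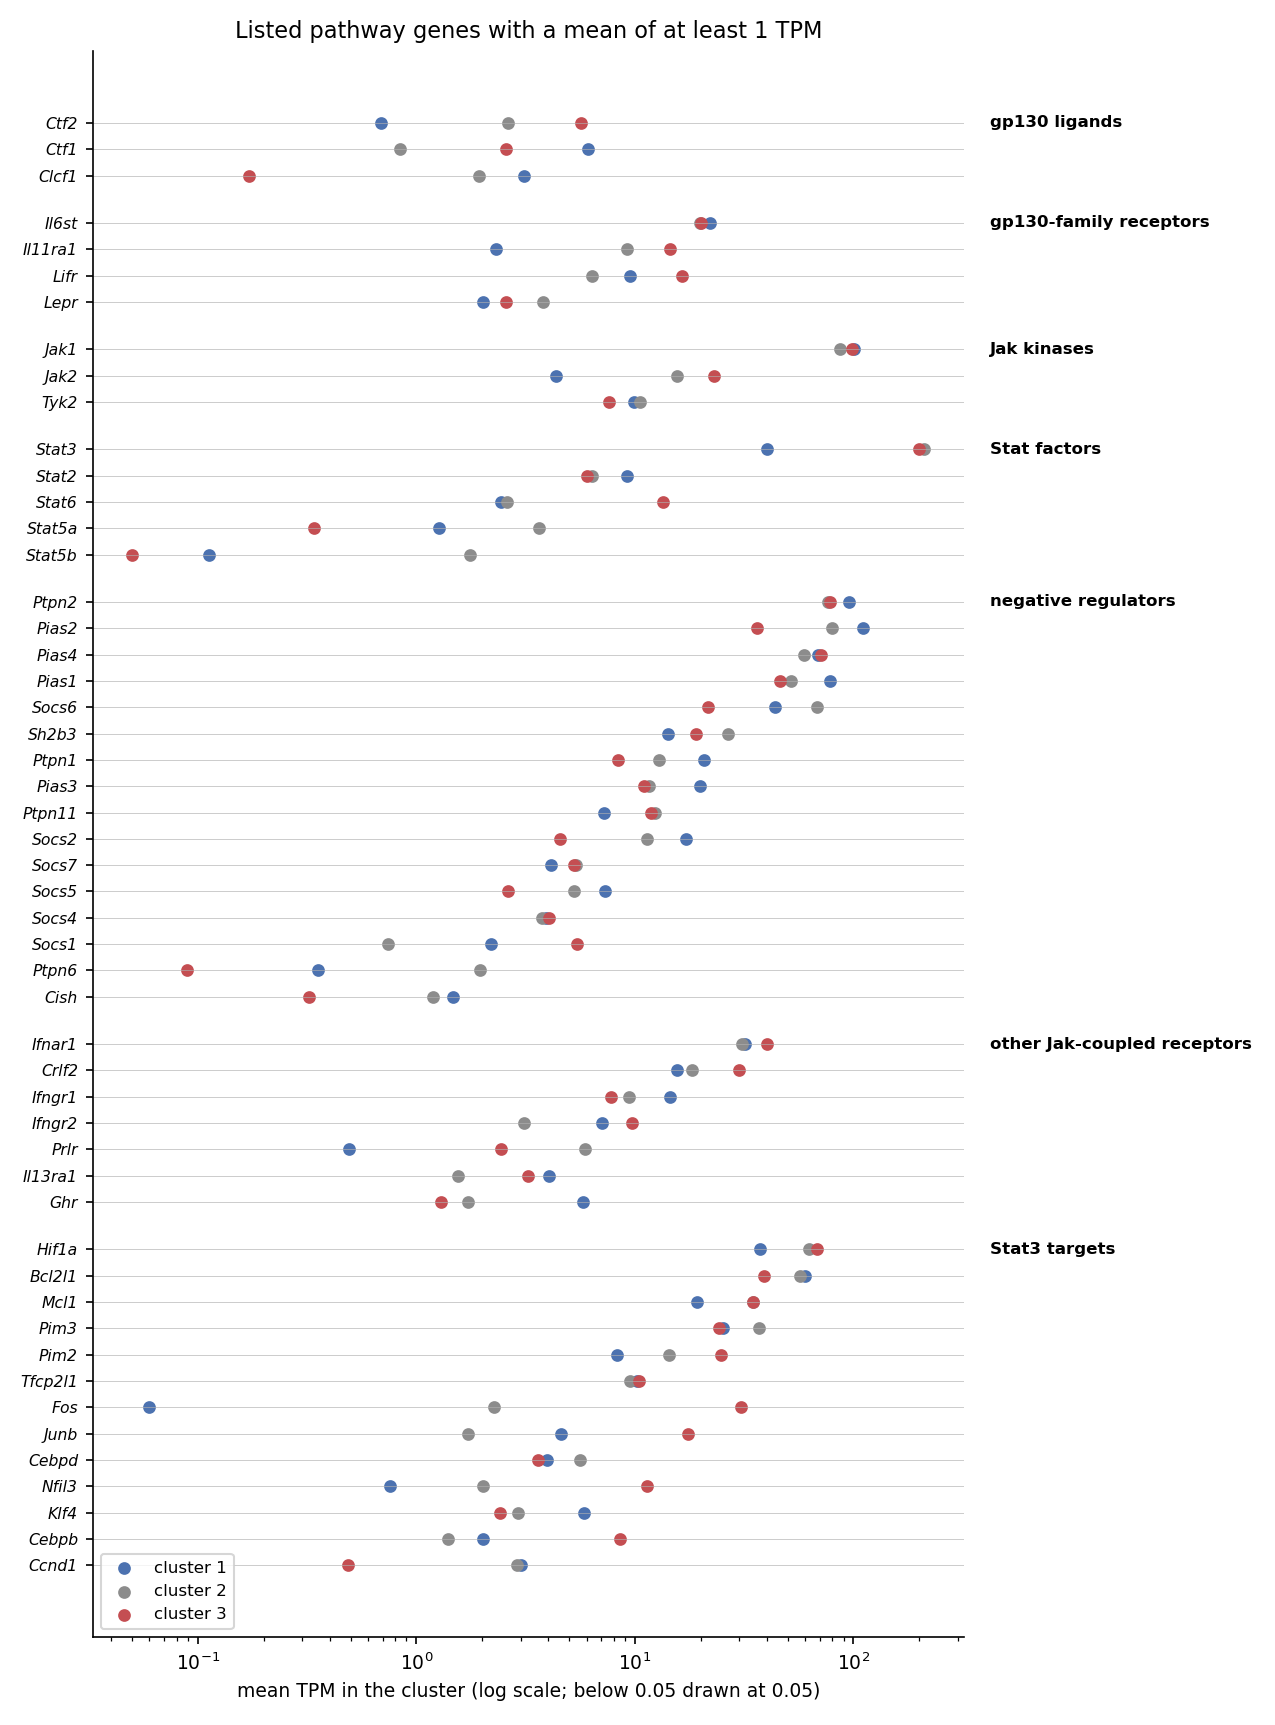
Mean TPM (log axis, values below 0.05 drawn at 0.05) in clusters 1, 2 and 3 of listed pathway genes with a mean of at least 1 TPM over the kept cells; each dot is the mean of 1 cluster. Stat3 stands right of the other factors shown in all 3 clusters, at 40.15, 210.9 and 200.4 TPM, and Stat6 lies at 2.43, 2.59 and 13.4 TPM.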

How the data were processed

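A total of 146 Smart-seq2 libraries of single cells were analysed. Per the labels, FastQC and Salmon were used with mm10; the annotation release is not given in the sources used here. The authors deposited, for each gene symbol, TPM and estimated counts of reads that need not be whole. Both columns were used as deposited, TPM for levels and estimated counts for depth, CPM and implied transcript length. The deposited length columns were not used for genes with several transcripts, since they did not match the reads and TPM.

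Libraries with an r above 0.95 over coding genes were joined as 1 cell, with mean TPM and summed counts; 7 pairs were. Clusters were rebuilt on all cells in Seurat 5.3.0 (R 4.3.3) from 20 feature genes, 19 named in the study's text and Taf4b supplied here, using 20 neighbours, 10 components and resolution 0.2, the first tried that gave 3 clusters. They differ from the study's own, which came after a filter on cells that was not repeated here. SciPy 1.17.1, NumPy 2.4.6 and pandas 2.3.3 under Python 3.11.15 gave all other values. Coding genes and loci came from GENCODE M21, which matched 28006 of 52605 symbols (RefSeq matched 35 and synonyms 275 more). Shares carry a 95% Clopper-Pearson interval for counting error alone; reads are not unique molecules. A share of 0 was given the limit of 3 counts. Implied length is an effective length, scaled by the deposited effective lengths of genes with a single annotated transcript, and needed at least 20 reads. Doublets were not called.

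The 6 genes are named by rule, together with every listed pathway gene of at least 1 TPM on average, the markers, and the 5 coding genes of highest rho with each member detected in at least 50% of cells. Genes named beyond this (Il6, Lif, Il6ra, Ifnar2, Jak3, Stat4, Bcl3, Myc) were chosen after their values were seen. Some genes that the rule names are not reported here. The members and lists were chosen with earlier results of these data known. The calculations were tested on simulated data. Alternatives were another pseudocount, mean log2 values, CPM, spike-in scaling, other clusters, no filter, other bins and detection rules, and leaving out cells. The joining of pairs and the alternatives on length, on single libraries, without Taf4b and without cells high in pregranulosa and stroma markers were chosen after seeing the data.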

Additional observations from a re-analysis of the deposited data

Results flagged for a closer look

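The cell left out for having no Ddx4, cell 29, held signal for 4 of the 6 genes and entered no value of the report, apart from the building of the clusters and the alternative that adds it. It had 1408459 reads, summed germ cell markers of 3.55 TPM (median of kept cells 7800 TPM), pregranulosa markers of 100 TPM (0.539 TPM) and stroma markers of 249 TPM (1.07 TPM). Its Jak1 was 343 TPM from 359 reads, above all but 3 of the kept cells. Its Lifr was 73.5 TPM from 201 reads, above all but 6. Its Il6st was 4.69 TPM from 46 reads and its Stat3 was 3.74 TPM from 9.1 reads, with 51.4% and 95.7% of kept cells higher. With 1 such cell no difference between cell types can be measured.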

How the results depend on the processing

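No paired analysis was possible because the labels name no animal and all cells form 1 sample. Ratios are log2. With clusters from 2000 variable genes, cluster 2 over 1 gave 1.57 for Stat3, 0.636 for Jak1 and 0.998 for Jak2, cluster 3 over 2 gave -0.681 for Stat3 and -0.749 for Jak1, and cluster 3 over 1 gave 0.888 for Stat3 and 1.2 for Jak2. As CPM, Lifr gave 1.73, -0.125 and 1.61 for cluster 2 over 1, 3 over 2 and 3 over 1, and with reads over the longest transcript 0.885 and -0.179 for the first pair. Both settings drop the transcript length of the single cell; the second was added after seeing the data. Per spike-in, cluster 3 over 2 gave 0.844 for Stat3, 1.11 for Jak1, 1.25 for Jak2 and 0.645 for Il6st, and cluster 3 over 1 gave 3.08, 0.827 and 0.663 for Stat3, Jak1 and Il6st, with the median of all coding genes at 0.649 and 0.426 in place of -0.204 and -0.242. As differences of mean log2 values, cluster 2 over 1 gave -0.823 for Jak1, cluster 3 over 2 gave 1.17 for Jak2, 0.724 for Il6st and 0.561 for Lifr, and cluster 3 over 1 gave 2.99 for Stat3 and 0.884 for Il6st. With Ward clusters Lifr gave 0.572 for cluster 3 over 2. With a pseudocount of 0.1, Socs3 gave -0.772 and 1.04 for cluster 2 over 1 and 3 over 2, from single cells. Leaving out 1 cell at a time gave Lifr -0.705 to 0.99, 0.628 to 1.43 and 0.119 to 2.23 for the 3 comparisons. The lowest values came without cells 96, 92 and 92, and the highest without cells 65, 96 and 65. For cluster 3 over 2 the lowest value was still past the 1.5-fold limit. Detected shares at 1 TPM were 76.1% for Jak2, 64.5% for Il6st and 25.4% for Lifr, and at 1 estimated read 93.5% for Il6st and 63.8% for Lifr. The cause of the other changes was not tested. Counting each of the 146 libraries as a cell, which was added after seeing the data, moved ratios by at most 0.047 and left Lifr in 46.9% of cells. Clusters built without cell 29, clusters without Taf4b (also added), adding cell 29, thinning and leaving out cells high in somatic markers moved no ratio by 1.5-fold and no share out of its interval. Within that limit, the call of Lifr for cluster 3 over 1 was lost with Ward clusters (0.405), with cell 29 (0.344), without Taf4b (0.472), without cells high in somatic markers (0.456) and with mean log2 values (0.431). Lifr for cluster 2 over 1 became a lower call with cell 29 (-0.895) and without cells high in somatic markers (-0.749). It did so too without cells high in pregranulosa and stroma markers (-0.674), a setting also added, which moved ratios by at most 0.27. Thinning each cell to 1000000 reads took the share with Lifr from 45.7% to 41.3% and left that with Socs3 at 1.45%.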
